A study of Mus musculus with 12 samples.

Results

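The comparison set 4 liver libraries from C57BL6/J mice on a MASH diet that received FGF21 against 4 from mice on the same diet that received vehicle, 8 of the 12 samples of the series, and all genes of the table were compared. Both groups were C57BL6/J, both ate the MASH diet and both were treated for 4 weeks, so they differed in what was given: FGF21 at 1 mg per kg per day in the FGF21 group, saline in the group called vehicle here. The other 4 samples, C57BL6/J on chow with saline, entered the fit and are given as reference levels. The labels state no age, route of dosing or diet formula. RNA was whole liver enriched with oligo-dT, so fewer cells of a type and less RNA per cell cannot be told apart. Nothing states that the 4 libraries of a group are separate animals, so the p-values measure no more than the variation among these libraries, part or all of which may be technical.

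FGF21 belongs to the endocrine branch of the fibroblast growth factors. It signals through FGF receptors, mainly Fgfr1, when the co-receptor β-klotho (Klb) is present, and then activates the ERK kinase cascade. The liver makes most of the circulating hormone, while many of its metabolic actions are known to run through adipose tissue and brain. MASH (metabolic dysfunction-associated steatohepatitis) is a fatty liver disease in which fat-laden hepatocytes are joined by cell injury, recruited macrophages and scar matrix.

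The values were TPM, a level scaled for transcript length and library total. Liver identity held in all 8 libraries: the summed level of 12 hepatocyte markers was 56494 to 62537 TPM with vehicle and 65151 to 83080 TPM with FGF21. FGF21 replicates 1 and 3 carried transcripts of the acinar pancreas. Cela2a, a pancreatic elastase, was at 425.4 and 616.1 TPM in them and at 0.1 to 0.5 TPM in the other 10 libraries, and the summed level of the 7 acinar genes in the table was 1136 and 1536 TPM against 32.3 to 46.9 TPM in the other 6 libraries on the MASH diet. The acinar list names 42 genes, so these sums leave out most of it. All values of a library summed to 992032 and 991794 TPM in FGF21 replicates 1 and 3 and to 998783 TPM in replicate 4. They summed to 999842 to 999890 TPM in the other libraries, chow included. Replicate 4 thus also fell short of these, though its acinar sum was 46.9 TPM. What made up the missing part was not tested. Libraries also varied in base composition. The Spearman correlation across genes between transcript GC content and a library's difference from the mean of the other vehicle libraries was -0.35, 0.15, -0.19 and 0.32 in the vehicle libraries. It was -0.14 in FGF21 replicate 1, within that range, and 0.47, 0.48 and 0.38 in FGF21 replicates 2 to 4, above it. The summed level of 12 erythroid and platelet markers was 3684 and 7054 TPM in FGF21 replicates 1 and 3. It was 1563 and 1370 TPM in replicates 2 and 4, and 1792 to 3943 TPM with vehicle. Leaving out replicates 1 and 3 thus changes more than acinar content. Results are given with all libraries and, where it matters, without replicates 1 and 3. No transcript here checks the treatment label.

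Among the 10988 genes that reached 1 TPM in 4 or more libraries, 662 rose and 470 fell with FGF21 at an adjusted p below 0.05 (limma's moderated test on log2(TPM + 1), two-sided, Benjamini-Hochberg adjustment over all genes tested), or 6.02% and 4.28% of the genes tested. The 6.02% and 4.28% are the shares over all genes to set beside the counts of each gene list below. Levels of the 8 libraries did not overlap between the groups for 821 genes that were higher and 728 that were lower, 7.47% and 6.63%. The falls were the larger changes: 99 of the 470 falls and 58 of the 662 rises passed a log2 fold change of 1 in size. Without FGF21 replicates 1 and 3 the counts were 1767 higher and 1222 lower (16.1% and 11.1%), and 624 of the 662 rises and 413 of the 470 falls were called again, with 0 changes of sign. The split between rises and falls moved with base composition. The median GC content was 57.3% in genes that rose and 49.2% in genes that fell, and the 1081 genes with the highest GC content held 265 of the rises and 29 of the falls. With the trend with GC content removed from each library, 498 genes rose and 534 fell (4.61% and 4.94%). The part of base composition in these results was not tested.

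Leaving out 1 library moved the counts. They were 1273 higher and 941 lower without FGF21 replicate 1, 286 and 308 without FGF21 replicate 2, and 424 and 320 without FGF21 replicate 4. They were 294 and 301 without vehicle replicate 1, 307 and 339 without vehicle replicate 3, and 327 and 242 without vehicle replicate 4.

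**Figure D1:**
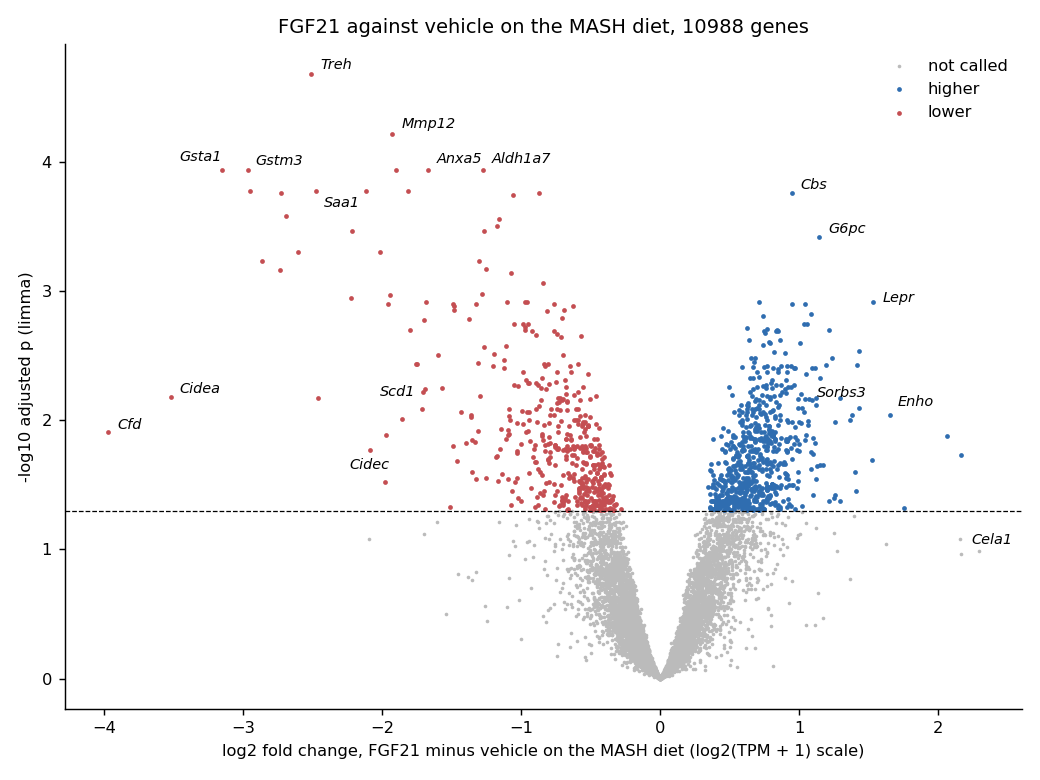
Each point is a gene, with the log2 fold change between FGF21 and vehicle on the MASH diet on the x axis and -log10 of the limma adjusted p on the y axis. The dashed line marks an adjusted p of 0.05, with 662 genes higher (blue) and 470 lower (red), and the falls reach further from 0 than the rises.

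**Figure D2:**
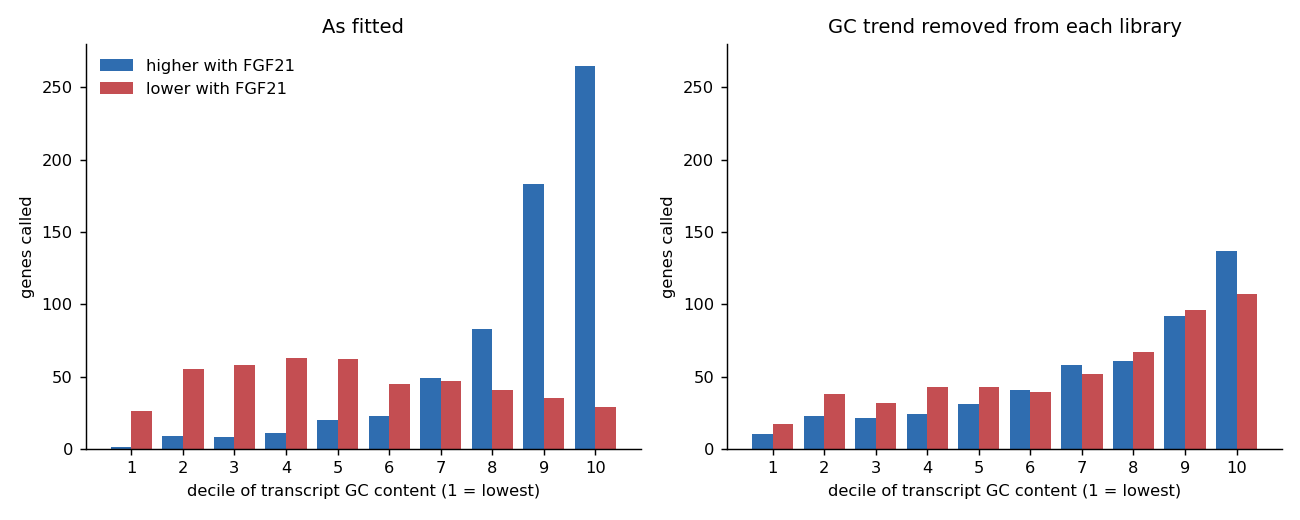
Numbers of genes called higher (blue) and lower (red) with FGF21 in 10 bins of transcript GC content, 1081 genes each, as fitted (left) and after the GC trend was removed from each library (right). The highest bin holds 265 rises and 29 falls as fitted, and 137 and 107 with the trend removed.

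Of the 9 tested genes for FGF21, its relatives and receptors, 4 rose and 0 fell, with a median log2 fold change of 0.38 beside -0.03 over all genes. Fgfr4, the main FGF receptor of hepatocytes and a receptor for the bile acid signal Fgf15, was at 29.8, 33.0, 35.3 and 30.7 TPM with vehicle and 46.0, 57.8, 53.2 and 62.4 TPM with FGF21. All 4 treated libraries lay above all vehicle libraries (log2 fold change 0.74, SE 0.12, adjusted p = 0.00259), and the chow mean was 48.5 ± 4.9 TPM (SD, n = 4). Fgf1, a related growth factor, rose from 33.2 ± 3.7 to 46.3 ± 3.9 TPM (log2 fold change 0.47, adjusted p = 0.0176). Fgfr3 and Frs3, an adaptor of FGF receptors, were called with log2 fold changes of 0.83 and 0.60. Both calls were lost with the GC trend removed, at adjusted p = 0.0764 and 0.0858, and Fgfr3 also overlapped between the groups. The call of Fgf1 was lost without vehicle replicate 2 or 4, that of Frs3 without vehicle replicate 1, 3 or 4 or FGF21 replicate 2 or 4, and that of Fgfr3 without any of 8 single libraries (chow replicates 1 and 3, vehicle replicates 1 to 3 and FGF21 replicates 2 to 4). The list's count of rises was 2 without any 1 of the vehicle libraries or of FGF21 replicates 2 and 4. Fgf21 itself was at 17.6, 38.5, 13.8 and 16.4 TPM with vehicle and 12, 12.6, 11.5 and 5.0 TPM with FGF21, against a chow mean of 4.2 ± 2.0 TPM. The groups did not overlap, but the difference missed the threshold (log2 fold change -0.96, SE 0.34, adjusted p = 0.088). The receptor pair through which the hormone signals was not called either: Klb was at 7.9 ± 1.5 TPM with vehicle and 10.7 ± 2.2 TPM with FGF21 (adjusted p = 0.144), and Fgfr1 at 3.3 ± 0.7 and 4.5 ± 1.2 TPM (adjusted p = 0.525). Of 16 tested immediate early and feedback genes of the ERK cascade, 0 rose and 2 fell. Jun, an AP-1 transcription factor, fell from 14.2 ± 4.7 to 5.8 ± 0.7 TPM, near its chow mean of 5.2 ± 0.4 TPM (log2 fold change -1.12, adjusted p = 0.00344), and Ier3 fell by 0.48 on the log2 scale, a call lost without any of chow replicates 1 to 3, vehicle replicates 2 to 4 and FGF21 replicates 2 and 4.

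Of 23 tested proteins of the lipid droplet, 6 fell and 0 rose, with a median log2 fold change of -0.31. Cidea, which fuses lipid droplets and is scarce in healthy liver, was at 42.0, 104.7, 118.1 and 104.5 TPM with vehicle and 1.1, 16.0, 19.9 and 3.4 TPM with FGF21. The groups did not overlap, and the 2 lowest treated libraries lay within the range around the chow mean, 2.1 ± 1.7 TPM. Cidec, its relative, was at 338.3, 390.9, 342.6 and 467.9 TPM with vehicle and 41.9, 171.9, 155.5 and 55.0 TPM with FGF21 (log2 fold change -2.09, SE 0.48, adjusted p = 0.0171). Its call was lost without vehicle replicate 4 and without FGF21 replicate 4. In both genes replicates 1 and 4 of the FGF21 group were low and replicates 2 and 3 were higher. Plin3, Hilpda and Hsd17b13, droplet coat and droplet-bound proteins, fell with log2 fold changes of -0.59, -0.71 and -0.67. The abundant coat protein Plin2 was at 1525 ± 363 TPM with vehicle and 1099 ± 215 TPM with FGF21, with overlapping groups (adjusted p = 0.134). The count of falls was 9 without FGF21 replicates 1 and 3 and 4 without vehicle replicate 4.

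Of 32 tested genes of fatty acid and triglyceride synthesis, 9 fell and 2 rose. Scd1 (chromosome 19, 44394455 to 44407879, GRCm38), the desaturase that makes monounsaturated fatty acids, was one of the most abundant transcripts of the vehicle livers at 14276, 15292, 13794 and 10577 TPM. With FGF21 it was at 3103, 6180, 6599 and 2299 TPM, and the groups did not overlap (log2 fold change -1.69, SE 0.31, adjusted p = 0.00568). The chow mean was 4822 ± 1295 TPM. Scd2, a second desaturase, Elovl1, an elongase of saturated fatty acids, and Pparg, a transcription factor that drives fat storage genes, fell with log2 fold changes of -1.02, -0.59 and -1.09. Mlxipl, which encodes the carbohydrate-sensing factor ChREBP, and Dgat2, an enzyme of triglyceride synthesis, rose by log2 fold changes of 0.83 and 0.54. Dgat2 was not called with the GC trend removed (adjusted p = 0.0723) nor without any 1 of the vehicle libraries or of FGF21 replicates 2 to 4. Fatty acid synthase, Fasn, was at 343 ± 91 TPM with vehicle and 386 ± 110 TPM with FGF21 (log2 fold change 0.16, adjusted p = 0.771), and the sign of that difference turned with the GC trend removed, at -0.046. The list's count of falls was 5 without vehicle replicate 3, FGF21 replicate 2 or FGF21 replicate 4.

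Genes of fatty acid oxidation fell in 3 and rose in 0 of 41 tested cases. These are 7.32% and 0%, beside 4.28% and 6.02% of all genes tested. Acaa1b, a peroxisomal thiolase, fell from 8415 ± 169 to 5298 ± 1272 TPM, and Pex11a, a factor of peroxisome division, from 135 ± 14 to 91.0 ± 16.4 TPM. Pex11a was no longer called without FGF21 replicate 3, nor without vehicle replicate 1, 2 or 4. Without FGF21 replicates 1 and 3 the list held 3 falls and 5 rises, and without replicate 1 alone 5 falls and 2 rises. Cyp4a12a and Cyp4a12b, male-biased ω-hydroxylases of fatty acids and arachidonic acid that are near-identical copies and so may share reads, were lower by log2 fold changes of -1.70 and -1.96. Lpl, the lipoprotein lipase that liver expresses little of in health, fell from 20.5 ± 2.4 to 10.5 ± 3.8 TPM, with a chow mean of 1.3 ± 0.2 TPM.

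Apolipoproteins moved both ways, 3 higher and 3 lower of 22 tested, or 13.6% each beside 6.02% and 4.28% of all genes tested. Apom, the carrier of sphingosine 1-phosphate in HDL, was at 219.9, 166.0, 195.2 and 183.9 TPM with vehicle and 402.0, 303.6, 353.4 and 335.5 TPM with FGF21 (log2 fold change 0.86, SE 0.13, adjusted p = 0.00238). Apoa5, which promotes clearance of plasma triglycerides, rose from 1587 ± 69 to 2737 ± 780 TPM, and Apoc2, the cofactor of lipoprotein lipase, fell from 1924 ± 165 to 1087 ± 241 TPM. In cholesterol synthesis 1 of 24 tested genes rose and 0 fell, or 4.17% and 0% beside 6.02% and 4.28% of all genes tested. That gene was Srebf2, the regulator of the pathway, at 19.6 ± 1.8 TPM with vehicle and 35.5 ± 11.2 TPM with FGF21 (log2 fold change 0.79, adjusted p = 0.011). Without FGF21 replicates 1 and 3 the list held 2 rises and 4 falls, and its median log2 fold change was -0.18 against 0.098 with all libraries.

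Of 26 tested genes of bile acid synthesis and transport, 3 rose and 1 fell. These are 11.5% and 3.85%, beside 6.02% and 4.28% of all genes tested. Cyp8b1, the 12α-hydroxylase that sets the share of cholic acid, was at 610.5, 795.7, 825.7 and 718.8 TPM with vehicle and 967.5, 1385, 1113 and 1279 TPM with FGF21 (log2 fold change 0.68, SE 0.13, adjusted p = 0.00814). Hsd3b7, an enzyme of the same pathway, and Slc10a1, the bile acid uptake carrier, rose by log2 fold changes of 0.38 and 0.49. The call of Hsd3b7 was lost with the GC trend removed (adjusted p = 0.0958), and that of Slc10a1 without any of 9 single libraries (chow replicates 1, 3 and 4, vehicle replicates 1, 2 and 4, and FGF21 replicates 1, 2 and 4). The list held 5 rises and 2 falls without FGF21 replicates 1 and 3. Abcc4, an export pump induced in cholestasis, fell from 1.4 ± 0.3 to 0.6 ± 0.1 TPM, with a chow mean of 0.3 ± 0.1 TPM. Cyp7a1, which catalyses the slowest step from cholesterol to bile acids, varied too much within groups to be compared: 7.0, 1.8, 8.6 and 18.6 TPM with vehicle and 2.0, 5.1, 18.3 and 23.2 TPM with FGF21 (log2 fold change 0.25, SE 0.63, adjusted p = 0.839).

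The list with the most falls was that of glutathione enzymes and NRF2 targets, with 17 of 49 tested lower and 1 higher. NRF2 is the transcription factor that switches on detoxifying genes under oxidative stress through antioxidant response elements. Gstm3 (chromosome 3, 107963696 to 107969283, minus strand), a glutathione transferase, was at 240.4, 406.3, 218.6 and 466.3 TPM with vehicle and 54.5, 34.2, 51.5 and 25.5 TPM with FGF21. The treated libraries lay below the chow mean of 78.5 ± 16.2 TPM (log2 fold change against vehicle -2.96, SE 0.27, adjusted p = 0.000115). Gsta1 was at 22.8, 22.5, 12.4 and 25.7 TPM with vehicle and 1.3, 2.4, 1.7 and 0.5 TPM with FGF21, also below its chow mean of 5.9 ± 2.8 TPM (log2 fold change -3.16, SE 0.30, adjusted p = 0.000115). Gstm2 fell from 93.1 ± 24.5 to 31.8 ± 3.2 TPM, and Ugdh, which makes the glucuronic acid donor, from 75.9 ± 7.4 to 38.9 ± 6.4 TPM. Mgst1, a membrane-bound transferase and the most abundant member, fell from 8590 ± 803 to 5574 ± 1130 TPM, a call lost with the GC trend removed (adjusted p = 0.0669). Glutathione transferases are close paralogs, and reads may be split among them. The member that rose was Keap1, the inhibitor of NRF2, by a log2 fold change of 0.57, a call lost with the GC trend removed (adjusted p = 0.113) and without any of 8 single libraries (chow replicates 1 and 3, vehicle replicates 1, 3 and 4, and FGF21 replicates 2 to 4). With the GC trend removed 17 members still fell and 0 rose, and the counts of falls with single libraries left out were 15 to 20. Aldh1a7, an aldehyde dehydrogenase outside this list, was at 114.7, 122.2, 119.5 and 128.5 TPM with vehicle and 51.5, 52.6, 55.8 and 39.4 TPM with FGF21 (log2 fold change -1.28, SE 0.12, adjusted p = 0.000115).

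The antioxidant response element core TGACNNNGC, searched on both strands from 250 bases before to 50 after each RefSeq start (GRCm38.p6), was present in 12.4% of 32851 promoters. It was found in 2 of the 5 members that fell, are named here and have a promoter in the table, Ugdh and 1 of the 2 promoters of Mgst1, and no match in the window says nothing of elements elsewhere. The promoter of Ugdh is shown because it holds the core in 2 places, 132 and 94 bases before the start, and lies in a gene that fell in all 4 treated libraries. The 250 bases before the start, chr5:65435843-65436092 on the minus strand, read 5′ to 3′, with the matches in capitals.
Ugdh: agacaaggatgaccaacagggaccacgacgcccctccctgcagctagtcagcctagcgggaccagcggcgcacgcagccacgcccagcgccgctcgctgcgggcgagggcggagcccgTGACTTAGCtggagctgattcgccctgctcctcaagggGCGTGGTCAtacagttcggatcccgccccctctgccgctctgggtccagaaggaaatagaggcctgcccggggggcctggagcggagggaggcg

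Drug-metabolizing P450 and related enzymes were called about as often as all genes tested, 4 higher and 3 lower of 55, or 7.27% and 5.45% beside 6.02% and 4.28%. Cyp2c37, an arachidonic acid epoxygenase, was at 86.2, 64.8, 81.9 and 75.5 TPM with vehicle and 205.6, 127.8, 148.2 and 160.1 TPM with FGF21 (log2 fold change 1.03, SE 0.15, adjusted p = 0.00179). Cyp2d10 and Cyp2d40 rose by log2 fold changes of 0.74 and 0.65. Cyp3a11, the main drug-oxidizing P450 of mouse liver, fell from 662 ± 174 to 264 ± 117 TPM, and Fmo5, a flavin monooxygenase, from 355 ± 42 to 188 ± 47 TPM. Without FGF21 replicate 1 the list held 6 rises and 9 falls, without chow replicate 2 it held 5 falls, and without FGF21 replicates 1 and 3 it held 7 of each.

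Of 24 tested genes in a list of injury, senescence and tumour genes, 12 fell and 0 rose, with a median log2 fold change of -0.89, and 12 fell with the GC trend removed as well. Ly6d, a membrane antigen induced in fatty and injured hepatocytes, was at 70.5, 80.8, 104.4 and 135.6 TPM with vehicle and 17.0, 15.3, 16.3 and 4.9 TPM with FGF21, with a chow mean of 3.0 ± 1.5 TPM (log2 fold change -2.86, SE 0.35, adjusted p = 0.00058). Anxa2, an annexin of cell membranes that also stands in the macrophage list, was at 127.3, 175.5, 148.1 and 263.2 TPM with vehicle and 25.9, 58.3, 48.6 and 22.8 TPM with FGF21 (log2 fold change -2.22, SE 0.29, adjusted p = 0.00112). Anxa5 was at 134.2, 181.4, 150.7 and 216.8 TPM with vehicle and 41.9, 60.9, 54.7 and 52.4 TPM with FGF21, near its chow mean of 41.4 ± 5.3 TPM. S100 proteins of the list, which bind annexins, fell too, S100a11 from 63.0 ± 16.0 to 17.1 ± 3.3 TPM and S100a10 from 488 ± 28 to 241 ± 60 TPM. The keratins Krt8 and Krt18, filaments of hepatocytes that rise in ballooned cells and also mark bile duct cells, fell with log2 fold changes of -1.05 and -0.97. Krt18 was at 542.0, 530.1, 527.3 and 671.7 TPM with vehicle and 292.1, 316.2, 353.8 and 209.2 TPM with FGF21, against a chow mean of 260.4 ± 15.3 TPM. The summed level of the 23 bile duct markers moved with them, from 1335 to 1872 TPM with vehicle to 586 to 1006 TPM with FGF21, 5 of 17 tested markers fell (3 with the GC trend removed, and 3 without vehicle replicate 3 or 4 or FGF21 replicate 2 or 4), and their part in the keratin values was not tested. Genes of the cell cycle fell in 6 of 22 tested cases and rose in 0. Cdc20, an activator of the anaphase-promoting complex, was at 11, 6.7, 4.7 and 3.0 TPM with vehicle and 1.0, 1.3, 1.6 and 1.1 TPM with FGF21, and Birc5 and Ube2c fell with log2 fold changes of -0.99 and -1.03. The count of 6 was 3 without vehicle replicate 4 and 9 without FGF21 replicate 1.

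Several other genes fell far. Treh, the gut and kidney trehalase, had the smallest p of all genes: it was at 5.8, 7.7, 6.2 and 10.3 TPM with vehicle and 0.2, 0.7, 0.6 and 0.4 TPM with FGF21 (log2 fold change -2.51, SE 0.18, adjusted p = 2.09e-05). Sprr1a, a structural protein of cornified epithelium, was at 2.1 to 14.1 TPM with vehicle and at most 0.2 TPM with FGF21. Sdcbp2, a syntenin scaffold protein, was at 2.4 to 10.5 and 0.2 to 0.3 TPM, and Cib3, a calcium-binding protein, at 5.9 to 21.7 and 0.5 to 2.5 TPM. Cib3 differs from these in its chow mean, 10.3 ± 8.5 TPM, against 1.9 ± 0.5 TPM for Treh and 0.1 TPM for Sprr1a and Sdcbp2. Smpd3, a neutral sphingomyelinase that releases ceramide, fell from 11.3 ± 4.2 to 2.5 ± 1.2 TPM, and Sptlc2, a subunit of the enzyme that starts ceramide synthesis, from 3.0 ± 0.2 to 1.8 ± 0.3 TPM. Cfd, the complement protease adipsin that adipocytes secrete, was at 116.0, 66.6, 515.3 and 295.7 TPM with vehicle and 5.3, 41.0, 33.3 and 1.2 TPM with FGF21. Adipoq, the defining adipocyte transcript, was at 0.0 to 0.2 TPM in the 4 vehicle libraries. It was at 2.0 and 1.9 TPM in FGF21 replicates 1 and 3, against 0.0 TPM in replicates 2 and 4. The part of adipocytes in the Cfd values was not tested.

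**Figure D3:**
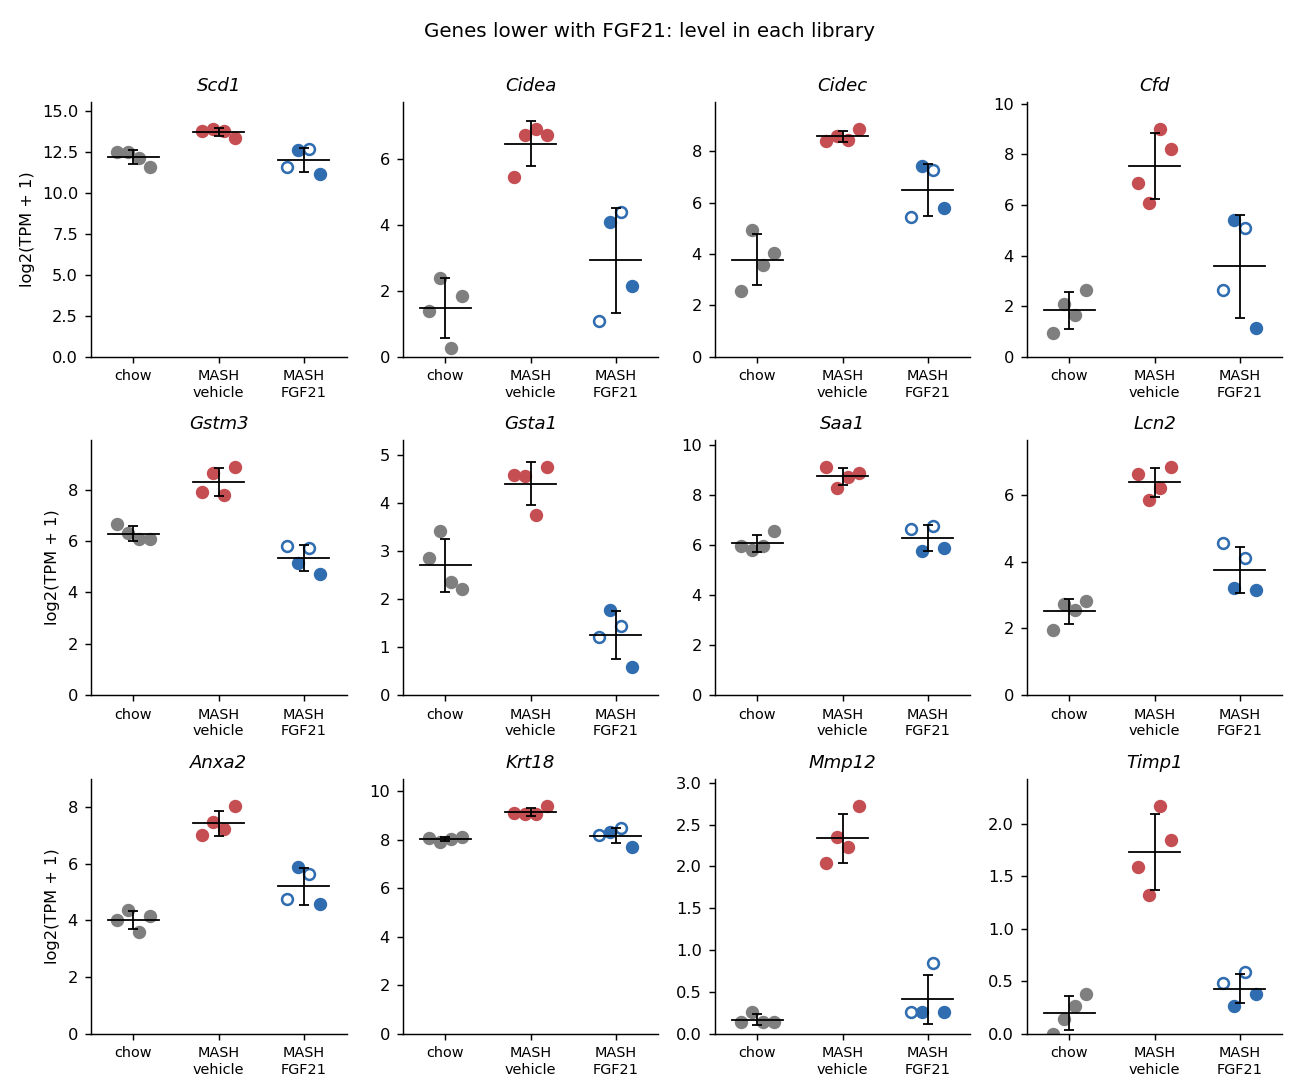
Level in each library as log2(TPM + 1) for 12 genes that were lower with FGF21, in chow (grey), MASH vehicle (red) and FGF21 (blue) libraries, with the mean and SD of 4. Open circles are FGF21 replicates 1 and 3, which carry acinar transcripts, and in all 12 genes every treated library lies below every vehicle library.

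Acute phase proteins, which hepatocytes secrete under inflammatory cytokines, fell in 9 and rose in 2 of 33 tested cases. Saa1, serum amyloid A, was at 552.4, 313.9, 419.0 and 468.1 TPM with vehicle and 100.2, 53.7, 109.3 and 58.1 TPM with FGF21, with a chow mean of 68.3 ± 18.1 TPM (log2 fold change -2.47, SE 0.25, adjusted p = 0.000168). Saa2, its close copy, was at 155.6 to 328.0 TPM with vehicle and 22.9 to 51.2 TPM with FGF21 (log2 fold change -2.70, adjusted p = 0.00026). Lcn2, an iron-sequestering protein made by stressed hepatocytes and by neutrophils, was at 96.6, 56.4, 72.1 and 111.6 TPM with vehicle and 22.7, 8.3, 16.1 and 7.9 TPM with FGF21 (log2 fold change -2.61, SE 0.31, adjusted p = 0.000495). The orosomucoids Orm1, Orm2 and Orm3 fell with log2 fold changes of -0.68, -2.12 and -2.73, the scarcer copies by more. Orm1 was at 1138 ± 129 TPM with vehicle, Orm2 at 48.4 ± 14.8 TPM and Orm3 at 14.6 ± 6.8 TPM, and reads of these copies may be split. In Saa1, Saa2 and Lcn2, FGF21 replicates 1 and 3 were the higher of the treated libraries, and without them the falls were larger, at log2 fold changes of -2.92, -3.20 and -3.18. The rises were Itih4, an inter-α-trypsin inhibitor chain, and Serpina1a, an α1-antitrypsin, with log2 fold changes of 0.68 and 0.49. The call of Itih4 was lost without vehicle replicate 2 or 3 or FGF21 replicate 2, and that of Serpina1a without vehicle replicate 1, 2 or 4 or FGF21 replicate 4. Without FGF21 replicates 1 and 3 the list held 14 falls and 8 rises, and without replicate 1 alone it held 14 falls and 3 rises. The rises numbered 0 without vehicle replicate 2, and 1 without vehicle replicate 1, 3 or 4 or FGF21 replicate 4. The summed level of 7 neutrophil markers was 63.9 to 118.9 TPM with vehicle and 13.3 to 30.6 TPM with FGF21, most of it Lcn2 in every library. S100a9, a calcium-binding protein of neutrophils, was at 2.2 to 2.6 TPM with vehicle and 1.1 to 2.0 TPM with FGF21 (log2 fold change -0.43, adjusted p = 0.0454, and 0.124 with the GC trend removed). Its call was also lost without any of 9 single libraries, all but chow replicate 1 and FGF21 replicates 1 and 3. Its partner S100a8 was at 0.5 to 1.5 TPM with vehicle and 0.1 to 1.4 TPM with FGF21, and the neutrophil receptor Csf3r at 2.8 to 3.2 and 2.3 to 4.1 TPM. The part of neutrophils in the fall of Lcn2 was not tested.

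The promoters of 5 acute phase genes with large falls are shown because each holds a match to TTGCNNAA, a core of the sites bound by C/EBP factors, the liver regulators of the acute phase. On both strands of the same window this core was present in 10.8% of 32851 promoters and in 7 of the 7 acute phase genes that fell, are named here and have a promoter in the table (the 5 shown, Steap4 and S100a9). Of the same 7, 1 held TTCNNNGAA, a core of STAT sites, and 1 held GGGNNTTCC, a core of NF-κB sites, against 8.30% and 5.82% of all promoters, and 0 held the antioxidant response element core. The motifs were chosen after the falls were seen, and a match is a description of the sequence, not a bound site. The share counts promoters and the 7 of 7 counts genes, and acute phase genes that did not fall are not compared here. The promoters of Saa1 and Saa2, and those of Orm2 and Orm3, are near copies of each other, so the matches are not independent. Each line gives the 250 bases before the RefSeq start, 5′ to 3′, with the matches in capitals: Saa1 chr7:46742981-46743230 and Lcn2 chr2:32387740-32387989 on the minus strand, Saa2 chr7:46751583-46751832, Orm2 chr4:63362199-63362448 and Orm3 chr4:63355908-63356157 on the plus strand (GRCm38.p6).
Saa1: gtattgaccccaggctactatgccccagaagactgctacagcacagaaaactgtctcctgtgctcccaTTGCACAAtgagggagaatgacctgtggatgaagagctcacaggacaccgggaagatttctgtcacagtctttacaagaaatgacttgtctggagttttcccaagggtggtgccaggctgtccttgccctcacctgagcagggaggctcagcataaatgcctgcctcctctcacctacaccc
Saa2: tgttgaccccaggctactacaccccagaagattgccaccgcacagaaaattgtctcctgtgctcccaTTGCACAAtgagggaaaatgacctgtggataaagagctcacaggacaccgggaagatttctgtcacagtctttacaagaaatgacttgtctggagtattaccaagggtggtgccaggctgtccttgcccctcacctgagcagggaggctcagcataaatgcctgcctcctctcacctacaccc
Orm2: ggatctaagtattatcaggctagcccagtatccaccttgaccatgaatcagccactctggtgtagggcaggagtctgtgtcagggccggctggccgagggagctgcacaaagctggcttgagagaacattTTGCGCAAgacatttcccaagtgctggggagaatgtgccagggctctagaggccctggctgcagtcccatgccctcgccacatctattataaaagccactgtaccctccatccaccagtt
Orm3: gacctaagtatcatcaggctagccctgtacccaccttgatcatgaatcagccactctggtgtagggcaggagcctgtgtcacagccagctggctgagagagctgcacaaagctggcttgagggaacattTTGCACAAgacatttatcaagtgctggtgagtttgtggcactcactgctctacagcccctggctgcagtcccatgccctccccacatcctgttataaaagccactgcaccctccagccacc
Lcn2: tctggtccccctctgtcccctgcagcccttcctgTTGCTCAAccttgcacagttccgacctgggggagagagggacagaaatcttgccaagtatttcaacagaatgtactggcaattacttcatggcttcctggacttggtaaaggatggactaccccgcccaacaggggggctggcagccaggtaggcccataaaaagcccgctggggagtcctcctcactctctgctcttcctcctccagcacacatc
The match began 182 bases before the start in Saa1, 183 in Saa2, 120 in Orm2, 121 in Orm3 and 216 in Lcn2. In Saa1, Saa2 and Orm3 it read TTGCACAA, and in Orm2 it was the palindrome TTGCGCAA.

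Of 24 tested markers of lipid-associated and recruited macrophages, 15 fell and 0 rose, with a median log2 fold change of -0.67. The list also holds Plin2, its most abundant member, and Anxa2, given above with droplet and injury genes, so it is not of macrophage genes alone. Mmp12, a macrophage elastase, was at 3.1, 4.1, 3.7 and 5.6 TPM with vehicle and 0.2, 0.2, 0.8 and 0.2 TPM with FGF21, near its chow mean of 0.1 ± 0.1 TPM (log2 fold change -1.93, SE 0.16, adjusted p = 6.05e-05). Clec7a, a receptor for fungal glucan on myeloid cells, fell from 6.0 ± 1.0 to 1.9 ± 0.4 TPM. Lgals3, which encodes galectin-3, fell from 31.6 ± 9.4 to 11.8 ± 2.3 TPM, and Itgax, the integrin CD11c, from 1.7 ± 0.2 to 0.7 ± 0.2 TPM. Trem2, the receptor that defines lipid-associated macrophages, was at 3.5, 4.1, 4.8 and 16.2 TPM with vehicle and 1.0, 1.8, 3.0 and 1.4 TPM with FGF21 (log2 fold change -1.35, SE 0.34, adjusted p = 0.025). Gpnmb, a lysosomal glycoprotein of the same cells, fell by 1.46 on the log2 scale with overlapping groups, since FGF21 replicate 3 was at 2.5 TPM and vehicle replicate 1 at 1.6 TPM. The calls of Trem2 and Gpnmb were lost without FGF21 replicate 2 and without FGF21 replicate 4, and that of Gpnmb also without vehicle replicate 3 or 4. The list's count was 8 without vehicle replicate 4, 9 without FGF21 replicate 2 or 4, and 16 without FGF21 replicates 1 and 3.

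Of 18 tested markers of resident Kupffer cells, 1 rose and 0 fell, or 5.56% and 0% beside 6.02% and 4.28% of all genes. The summed level of the markers was 1111 to 1248 TPM with vehicle and 994 to 1201 TPM with FGF21. The gene that rose was Marco, a scavenger receptor, at 11.6, 6.3, 8.4 and 6.6 TPM with vehicle and 42.1, 8.6, 18.5 and 28.3 TPM with FGF21 (log2 fold change 1.29, SE 0.37, adjusted p = 0.0418). The groups overlapped, and the call was lost without FGF21 replicates 1 and 3, with the GC trend removed (adjusted p = 0.0867) and without any 1 of 10 libraries, all but chow replicate 1 and FGF21 replicate 2. The list held 3 rises without FGF21 replicates 1 and 3. Adgre1, the macrophage antigen F4/80, was at 6.5 ± 1.5 TPM with vehicle and 4.5 ± 0.8 TPM with FGF21 (adjusted p = 0.0887). Of 28 tested chemokines, cytokines and receptors, 8 fell and 1 rose. Ccl2, the chemokine that recruits monocytes, was at 5.6, 8.8, 4.8 and 6.5 TPM with vehicle and 2.1, 2.4, 1.2 and 1.0 TPM with FGF21 (log2 fold change -1.48, SE 0.21, adjusted p = 0.00141). Tlr2, a receptor for bacterial lipoproteins, and Vcam1, an adhesion molecule, fell with log2 fold changes of -0.58 and -0.73. The rise was Cxcl12, a chemokine that holds leukocytes in tissue, with a log2 fold change of 0.39, a call lost without vehicle replicate 1, 2 or 4 or FGF21 replicate 4. The count of 8 was 5 without vehicle replicate 1, and without FGF21 replicates 1 and 3 the list held 10 falls and 4 rises.

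Dendritic cell and MHC class II genes were called in 2 of 13 tested cases, both lower: Itgax, given above, and H2-DMb1, with a log2 fold change of -0.70 that was not called with the GC trend removed (adjusted p = 0.0517) nor without any of 9 single libraries, all but chow replicate 4, vehicle replicate 2 and FGF21 replicate 1. Cd74, the invariant chain, was at 348 ± 52 TPM with vehicle and 230.5 ± 63.1 TPM with FGF21 and missed the threshold (adjusted p = 0.0562), as did H2-Eb1 (adjusted p = 0.0532). Without FGF21 replicates 1 and 3 the list held 7 falls, and without FGF21 replicate 1 alone it held 8. It held 4 without chow replicate 4 or vehicle replicate 2, and 1 without any of the other 9 libraries. Interferon response genes were called in 2 of 34 tested cases, 2.94% each way beside 6.02% higher and 4.28% lower over all genes tested. Ifi27l2b fell from 80.5 ± 22.9 to 24.4 ± 10.9 TPM, and Irf7, a transcription factor of the interferon response, rose from 43.0 ± 2.8 to 68.5 ± 11.4 TPM.

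Of 29 tested collagens and matrix proteins, 8 fell and 2 rose. Col1a1, the main collagen of scar, was at 4.3, 7.9, 22.0 and 11.1 TPM with vehicle and 2.5, 4.6, 4.2 and 2.3 TPM with FGF21, with a chow mean of 1.6 ± 0.5 TPM (log2 fold change -1.32, SE 0.34, adjusted p = 0.0287). The groups overlapped at vehicle replicate 1, and the call was lost without vehicle replicate 3 or 4, without FGF21 replicate 4, and without FGF21 replicates 1 and 3 together (log2 fold change -1.32). Col3a1 was at 16.1, 24.3, 57.5 and 27.7 TPM with vehicle and 10.8, 12.9, 11.9 and 7.5 TPM with FGF21 (log2 fold change -1.33, SE 0.30, adjusted p = 0.0147). In both collagens vehicle replicate 3 was the highest library. Sparc, a collagen-binding glycoprotein, was at 69.1, 82.8, 119.1 and 85.1 TPM with vehicle and 43.0, 36.6, 32.2 and 38.6 TPM with FGF21 (log2 fold change -1.20, SE 0.20, adjusted p = 0.00377). The 2 rises were Col18a1, a basement membrane collagen that hepatocytes make, from 445 ± 55 to 1032 ± 525 TPM, and Fn1, fibronectin, with a log2 fold change of 0.58. FGF21 replicate 4 was the highest library for Col18a1, at 1809 TPM, and the call of Fn1 was lost without any 1 of 10 libraries, all but FGF21 replicates 1 and 3. The count of 8 falls was 2 without vehicle replicate 3 or 4 or FGF21 replicate 4, 3 without FGF21 replicate 3, 4 without vehicle replicate 2, and 5 without chow replicate 3, FGF21 replicate 2 or FGF21 replicates 1 and 3 together. The summed level of the list, in which Col18a1 and Fn1 are abundant, was 1200 to 1565 TPM with vehicle and 1527 to 3180 TPM with FGF21.

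Of 23 tested matrix enzymes and inhibitors, 5 fell and 1 rose. Timp1, an inhibitor of matrix metalloproteinases and a marker of fibrosis, was at 2.0, 1.5, 3.5 and 2.6 TPM with vehicle and 0.4, 0.2, 0.5 and 0.3 TPM with FGF21, against a chow mean of 0.1 ± 0.1 TPM (log2 fold change -1.30, SE 0.16, adjusted p = 0.00058). Mmp12, given above, Loxl2, a collagen crosslinker, and Plau, urokinase, also fell, with log2 fold changes of -0.81 for Loxl2 and -0.44 for Plau, and Mmp14, a membrane collagenase, was the rise, with 0.69. The call of Plau was lost without vehicle replicate 4, and that of Mmp14 without vehicle replicate 1 or 4. The list held 5 rises and 5 falls without FGF21 replicates 1 and 3, and without replicate 1 alone 4 rises. Contractile genes of stellate cells gave another picture. Acta2 and Des differed between FGF21 replicates 1 and 3 and replicates 2 and 4. The part of acinar tissue, or of blood cells, whose markers also differed between these libraries, was not tested. Acta2, the actin of smooth muscle and of activated stellate cells, stood at 2.9, 4.0, 5.7 and 4.7 TPM with vehicle and 15.2, 2.0, 18.5 and 2.2 TPM with FGF21, high in the 2 libraries with acinar transcripts and low in the other 2. Its log2 fold change was 0.51 (adjusted p = 0.572) with all libraries and -0.75 (adjusted p = 0.0141) without FGF21 replicates 1 and 3. Des, desmin, was at 9.2 and 12.4 TPM in those libraries and 5.9 and 6.0 TPM in the other 2, against 3.7 to 5.5 TPM with vehicle, and its call (log2 fold change 0.69, adjusted p = 0.042) was lost without them, and also without any of 9 single libraries, all but chow replicate 4 and FGF21 replicates 2 and 4. Tpm1, a tropomyosin, fell from 28.0 ± 1.2 to 16.9 ± 3.8 TPM. Of 25 tested stellate cell genes 2 rose and 1 fell, or 8% and 4% beside 6.02% and 4.28% of all genes tested. Without FGF21 replicates 1 and 3, 0 rose and 4 fell. The rises numbered 0 without vehicle replicate 2, 3 or 4 or FGF21 replicate 3, and 1 without chow replicates 1 to 3, vehicle replicate 1 or FGF21 replicate 1 or 2, each left out alone. The falls numbered 2 without FGF21 replicate 1 or 3. In the endothelium list 1 of 29 tested genes rose, or 3.45% beside 6.02% of all genes tested. It was Eng, endoglin, from 81.7 ± 15.1 to 138.9 ± 27.5 TPM, and 8 genes rose without FGF21 replicates 1 and 3. The number was 3 without vehicle replicate 2, FGF21 replicate 1 or FGF21 replicate 3.

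**Figure D4:**
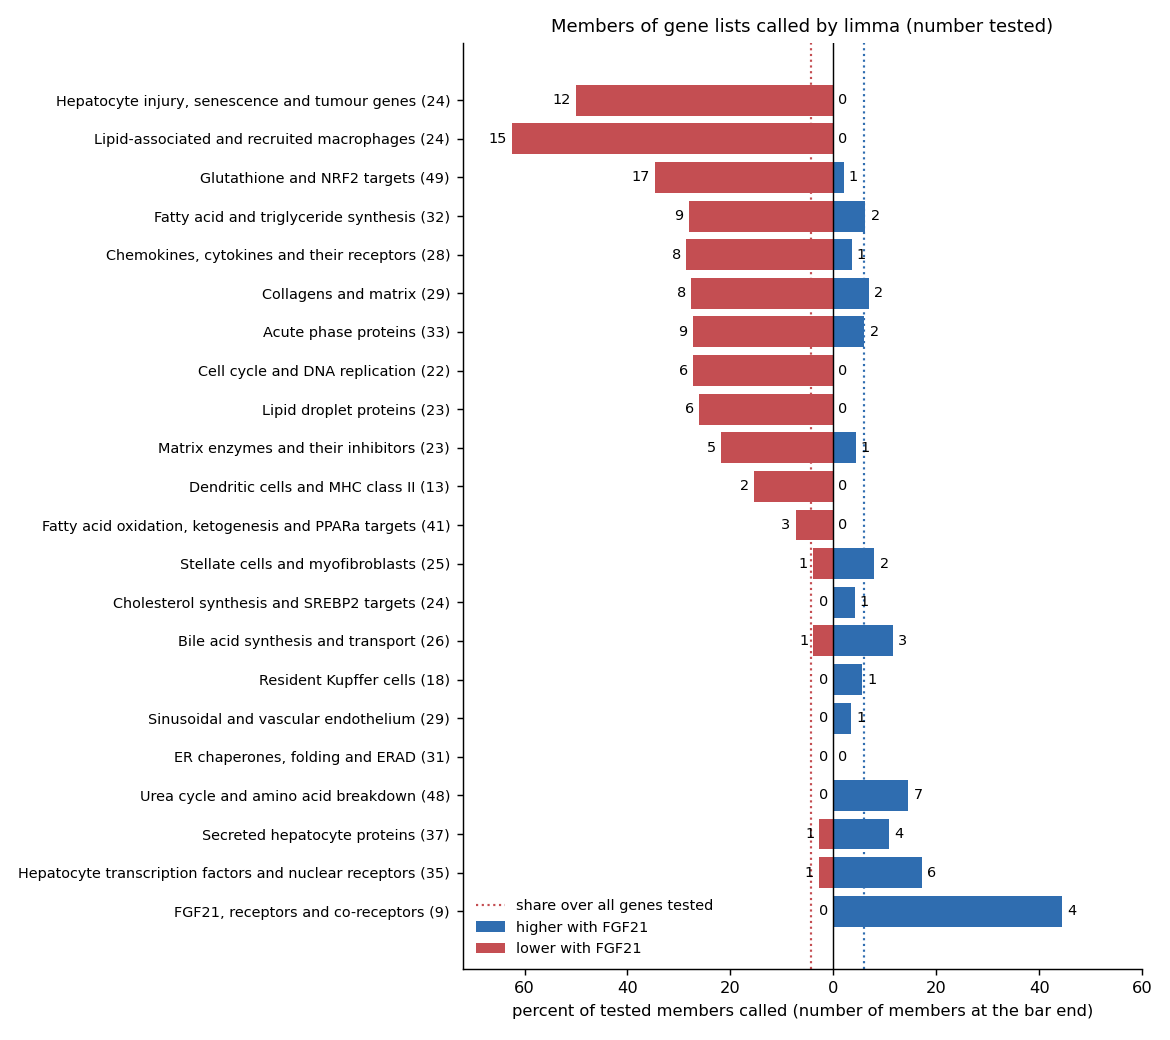
Share of the tested members of 22 gene lists, a selection from the 55, that limma called higher (blue, right) or lower (red, left) with FGF21, with the number of members called at the bar end and the number tested in parentheses. The dotted lines mark the shares over all genes tested, 6.02% higher and 4.28% lower. Among the lists shown, injury, macrophage and glutathione genes reach furthest to the left. The neutrophil list, not shown, had 3 tested members and 66.7% lower.

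The largest rises included several cell surface receptors. Lepr (chromosome 4, 101717404 to 101815352), the leptin receptor, whose soluble form the liver releases, was at 1.5, 1.5, 1.3 and 0.9 TPM with vehicle and 8.8, 5.0, 3.3 and 6.6 TPM with FGF21. All treated libraries lay above the vehicle libraries and above the chow mean of 0.8 ± 0.2 TPM (log2 fold change 1.53, SE 0.21, adjusted p = 0.00122). Adrb3, the β3-adrenergic receptor best known from fat cells, was at 4.1, 4.1, 7.8 and 4.8 TPM with vehicle and 11, 16.4, 17.8 and 16.2 TPM with FGF21 (log2 fold change 1.42, SE 0.23, adjusted p = 0.00375). Avpr1a, a vasopressin receptor of hepatocytes, rose from 2.6 ± 0.9 to 8.0 ± 3.3 TPM, and Scnn1a, a subunit of the epithelial sodium channel, from 9.4 ± 1.5 to 26.2 ± 14.8 TPM. Of 18 tested genes of leptin receptor and gp130 signalling, 3 rose and 0 fell: Lepr, Lifr, the receptor for leukaemia inhibitory factor, and Il6ra, the interleukin-6 receptor. Lifr and Il6ra had log2 fold changes of 0.95 and 0.72. The call of Lifr was lost without vehicle replicate 3 or 4, and that of Il6ra without any of chow replicate 2, the 4 vehicle libraries and FGF21 replicates 2 to 4.

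Lrp1, an endocytic receptor for remnant lipoproteins, was at 193.6, 228.1, 228.3 and 212.7 TPM with vehicle and 297.5, 496.1, 359.1 and 994.4 TPM with FGF21 (log2 fold change 1.15, SE 0.28, adjusted p = 0.0222). FGF21 replicate 4 was the highest library and replicate 1 the lowest of the treated ones for Lrp1, and likewise for Sorbs3, an adaptor of cell adhesion sites that was at 18.8 to 26.0 TPM with vehicle and reached 109.3 TPM with FGF21. The same order of replicates 4 and 1 held for Wdr81, Fbxo31, Slc27a1, Cbx7, Scnn1a and Ntn3 among the 15 largest rises, while Lepr, Rdh16f2 and Avpr1a were highest in replicate 1. The call of Lrp1 was lost without vehicle replicate 1 or 4 or FGF21 replicate 2. Abtb2 and Fbxo31 (log2 fold changes 1.25 and 1.21) were not called with the GC trend removed, at adjusted p = 0.1 and 0.0604, nor without any 1 of the vehicle libraries, chow replicate 2 or FGF21 replicate 2 or 4 (for Abtb2 also chow replicate 3, for Fbxo31 also FGF21 replicate 3). The call of Slc27a1, a fatty acid transporter (1.17), was lost without vehicle replicate 1 or 2 or FGF21 replicate 2 or 4. Sphk2, a sphingosine kinase, was at 53.1, 78.3, 57.8 and 50.7 TPM with vehicle and 111.7, 175.2, 113.2 and 167.8 TPM with FGF21. Cbx7, a Polycomb subunit, rose from 10.8 ± 1.3 to 25.7 ± 6.5 TPM. Rdh16f2, a retinol dehydrogenase, was at 48.6, 35.4, 53.6 and 38.1 TPM with vehicle and 195.8, 74.1, 111.4 and 121.9 TPM with FGF21, around its chow mean of 131.7 ± 8.2 TPM.

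G6pc, the catalytic subunit of glucose 6-phosphatase and the last enzyme of glucose release, was at 72.1, 74.2, 55.9 and 55.2 TPM with vehicle and 151.5, 160.5, 113.9 and 147.3 TPM with FGF21, near its chow mean of 153.1 ± 10.1 TPM (log2 fold change 1.14, SE 0.13, adjusted p = 0.000379). Cbs (chromosome 17, 31608894 to 31637238), which turns homocysteine into cystathionine, was at 574.5, 608.4, 539.2 and 475.1 TPM with vehicle and 989.6, 1156, 1006 and 1079 TPM with FGF21, above the chow mean of 802 ± 49 TPM (log2 fold change 0.95, SE 0.10, adjusted p = 0.000173). Cbs was one of 7 of 48 tested genes of the urea cycle and amino acid breakdown that rose, with 0 falls. That count was 2 without vehicle replicate 3 and 2 without FGF21 replicate 2. Leaving out any 1 of chow replicates 2 and 3, vehicle replicates 1, 2 and 4 and FGF21 replicates 3 and 4 gave a count of 3 or 4. The count was 13 without FGF21 replicate 1, 3 with the GC trend removed and 14 without FGF21 replicates 1 and 3. Hsd11b1, which regenerates active glucocorticoid, was at 201.3, 189.9, 222.1 and 174.9 TPM with vehicle and 325.3, 335.5, 276.3 and 393.8 TPM with FGF21 (log2 fold change 0.75, SE 0.11, adjusted p = 0.00205). Irs2, an adaptor of the insulin receptor, rose from 5.5 ± 0.9 to 10.4 ± 2.5 TPM.

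Of 35 tested hepatocyte transcription factors and nuclear receptors, 6 rose and 1, Pparg, fell. Klf15, a fasting-induced factor for amino acid breakdown, and Thra, a thyroid hormone receptor, rose by log2 fold changes of 0.81 and 0.63. The count of rises was 14 without FGF21 replicates 1 and 3, 11 without replicate 1 alone and 4 without vehicle replicate 1. The summed hepatocyte marker level, given above, was also higher in every treated library than in every vehicle library, and its part in these rises was not tested. Single markers did not rise as a group: of the 12 tested, 0 were called higher and 1 lower, or 0% and 8.33%. Their median log2 fold change was 0.17, and -0.003 without FGF21 replicates 1 and 3. The most abundant marker, Alb, was at 24005 ± 1144 TPM with vehicle and 30588 ± 7337 TPM with FGF21 (limma adjusted p = 0.214).

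Serpinf2, the inhibitor of plasmin, was at 944.4, 854.7, 957.2 and 920.1 TPM with vehicle and 1439, 1519, 1604 and 1474 TPM with FGF21 (log2 fold change 0.71, SE 0.10, adjusted p = 0.00122). Coagulation factor F7 rose from 91.1 ± 13.1 to 146.3 ± 13.8 TPM, and angiotensinogen, Agt, from 756 ± 55 to 1180 ± 97 TPM. Notum, a secreted enzyme that inactivates Wnt proteins, rose from 42.1 ± 7.8 to 85.5 ± 12.8 TPM. Enho, which encodes adropin, a peptide linked to energy balance, was at 1.1, 0.9, 0.7 and 0.5 TPM with vehicle and 6.0, 2.7, 5.4 and 5.1 TPM with FGF21, below the chow mean of 12.1 ± 7.0 TPM. Igfbp3, a carrier of IGF-1 made by nonparenchymal cells, fell from 15.5 ± 2.9 to 7.7 ± 2.5 TPM. In iron handling 2 of 27 tested genes rose and 4 fell, or 7.41% and 14.8% beside 6.02% and 4.28% of all genes. The counts were 4 and 7 without FGF21 replicate 1, and 5 and 7 without replicates 1 and 3. Tmprss6, the protease that restrains hepcidin, was at 551.3, 604.9, 587.9 and 573.7 TPM with vehicle and 796.9, 1253, 899.0 and 1165 TPM with FGF21 (log2 fold change 0.80, SE 0.14, adjusted p = 0.00558), and Tfr2, transferrin receptor 2, rose by 0.79 on the same scale. The falls were the ferritin chains Ftl1 and Fth1, Hmox1, heme oxygenase, and Steap4, a metalloreductase, with log2 fold changes of -0.65, -0.41, -0.65 and -0.74, and Fth1 was not called with the GC trend removed (adjusted p = 0.0681) nor without vehicle replicate 1 or 4.

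Of 20 tested members of the integrated stress response, 3 rose and 2 fell, or 15% and 10% beside 6.02% and 4.28% of all genes. With the GC trend removed the counts were 1 and 1. The rises numbered 1 without vehicle replicate 1, 3 or 4 or FGF21 replicate 2, and the falls 1 without any single library but FGF21 replicate 1. Atf3, a stress-induced transcription factor, was at 3.2, 4.5, 2.1 and 4.9 TPM with vehicle and 0.8, 0.7, 1.1 and 0.9 TPM with FGF21 (log2 fold change -1.28, SE 0.17, adjusted p = 0.00106), while Slc7a5, a transporter of large amino acids, rose from 2.5 ± 0.3 to 4.9 ± 1.3 TPM. Of 31 tested chaperones and folding factors of the endoplasmic reticulum, 0 rose and 0 fell by limma, with a median log2 fold change of -0.21, and 7 fell without FGF21 replicates 1 and 3 (6 without replicate 1 alone). Of 62 nuclear genes of oxidative phosphorylation, 1 fell and 0 rose, or 1.61% and 0% beside 4.28% and 6.02% of all genes. The falls numbered 18 without those libraries, 7 without replicate 1 alone, and 0 without any single library but vehicle replicate 4 and FGF21 replicates 1 and 3. Nnmt, a methyltransferase abundant in chow liver at 138 ± 17 TPM, was at 11.2 ± 7.6 TPM with vehicle and 18.9 ± 10.4 TPM with FGF21 (adjusted p = 0.287).

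**Figure D5:**
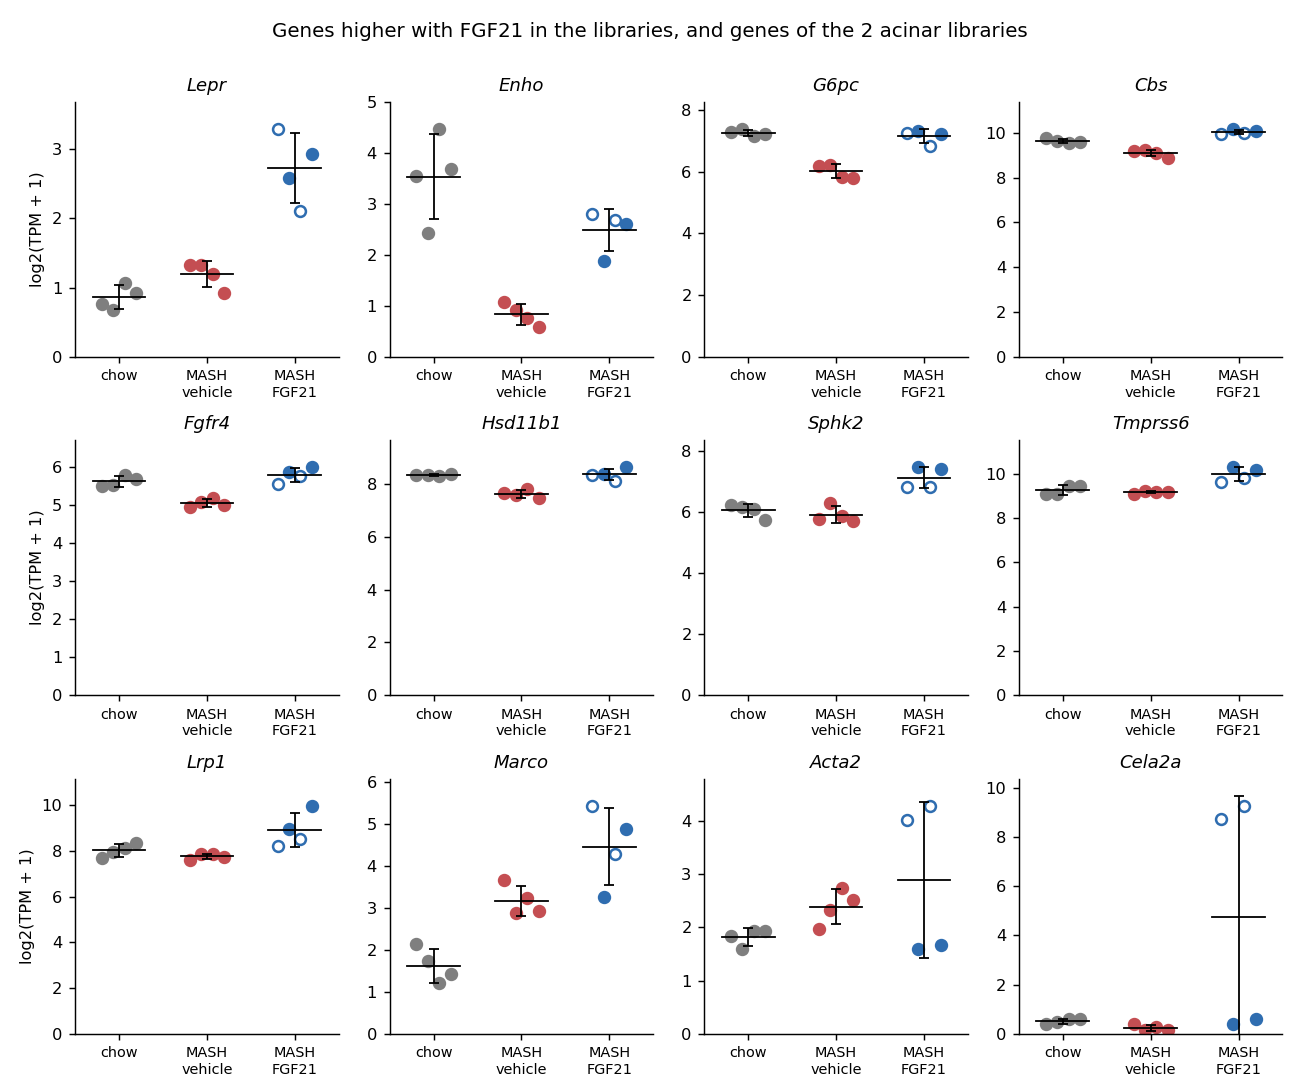
Level in each library as log2(TPM + 1) for 9 genes that rose with FGF21 (Lepr to Lrp1), for Marco, whose groups overlap, and for Acta2 and Cela2a, in chow (grey), MASH vehicle (red) and FGF21 (blue) libraries, with the mean and SD of 4. Open circles are FGF21 replicates 1 and 3, the 2 libraries in which Acta2 and Cela2a are high.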

How the data were processed

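Messenger RNA of whole liver was measured in 12 libraries, 4 each of chow with vehicle, MASH diet with vehicle and MASH diet with FGF21. RNA was extracted with a Qiagen kit and enriched with oligo-dT, per the labels' protocols. Reads were processed with Trim Galore 6.10, Salmon 1.10.2 and mm10, per the submitters' processing notes. The authors deposited 1 table of 14822 gene symbols whose columns sum to just under 1000000, so the values were taken as TPM, rounded to 1 decimal. No counts were used, so depth is unknown and no counting intervals are given.

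From these values log2(TPM + 1) was computed for the 10988 genes at 1 TPM or more in at least 4 libraries. limma 3.58.1 (R 4.3.3) was fitted to all 3 groups with a mean-variance trend and robust variances, and Benjamini-Hochberg adjusted p-values below 0.05 were called. The script was tested on simulated data with the same spread in all 3 groups. GC content and coordinates came from GENCODE M21 (GRCm38, the mm10 assembly), which matched 14547 symbols, and promoters from RefSeq (GRCm38.p6). Alternatives were other pseudocounts, filters and scalings, removal of the GC trend, the 8 MASH libraries alone, a replicate block, and each library left out.

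The members and the 55 gene lists were chosen with earlier results of these data known, and lists share genes. Named genes are the 15 largest rises and falls with non-overlapping groups and a mean of at least 5 TPM in a group (predicted genes, Mup and immunoglobulin genes left out), the 4 smallest p-values and the most abundant member of each list, and a fixed set of FGF, fat, matrix and macrophage genes. S100a8, Csf3r, Plau, Mmp14, Mlxipl, Dgat2, Itih4, Cxcl12, Fn1, Keap1, Fth1 and Hmox1 were chosen after their values were seen. Reads of near-identical copies (Gst, Saa, Orm, Cyp2d, Cyp4a, H2) may have been split. Some results are not reported here.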

Additional observations from a re-analysis of the deposited data

Results flagged for a closer look

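In 14 of 286 gene and group combinations of 4 libraries examined, 1 library lay far from the other 3 by Dixon's criterion at 95%, about the number that chance gives, since it picks out about 1 in 20 groups. The values are in TPM.

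FGF21 replicate 4 stood apart most often, in 5 genes. It was low for Fgf21, at 5.0 against 11.5 to 12.6 in the other 3 libraries, for Ly6d, at 4.9 against 15.3 to 17.0, and for Sdcbp2, at 0.2 against 0.3. It was high for Itgax, at 1.1 against 0.6, and for Cxcl12, at 166.7 against 133.8 to 136.7.

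FGF21 replicate 3, which carries acinar transcripts, stood apart in 4 genes. It was high for Mmp12, at 0.8 against 0.2, and for Gpnmb, at 2.5 against 0.1 to 0.3. It was low for Klf15, at 201.7 against 266.4 to 281.8, and for Hmox1, at 32.9 against 39.6 to 40.8.

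FGF21 replicate 1, the other such library, was high for Lifr, at 49.4 against 27.0 to 28.5, and low for Plau, at 0.6 against 0.9. FGF21 replicate 2 was high for Frs3, at 6.1 against 3.8 to 4.1. Among the vehicle libraries, replicate 1 was low for Cidea, at 42.0 against 104.5 to 118.1, and replicate 4 was high for Krt18, at 671.7 against 527.3 to 542.0. Values given as at 0.2 or 0.3 rest on the single decimal of the deposited table.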

How the results depend on the processing

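Of 131 named genes that were called, 96 were called in every 1 of 25 other settings that tested them, 13 were lost with the GC trend removed, 4 without FGF21 replicates 1 and 3, and 0 changed sign. Many were named for small p-values or large changes in these same data, which favours their being called again. Without FGF21 replicate 2, 113 of the 131 were still called, but over all genes only 280 of the 662 rises and 291 of the 470 falls. With all libraries or with the acinar pair left out, counts of genes higher and lower both moved by over 1.5 times in 3 settings. They were 348 and 283 in the 8 MASH libraries alone, where chow did not enter the spread, 1415 and 1054 with array weights, and 1767 and 1222 without FGF21 replicates 1 and 3. With a single library left out they ranged from 286 to 1273 and from 242 to 941. Other pseudocounts, filters and scalings gave 579 to 722 and 334 to 522. With the GC trend removed the share of rises among calls was 48.3% against 58.5%. The main fit used 1 spread per gene for all 3 groups, but the FGF21 libraries varied more among themselves. Across the tested genes, levels correlated at 0.958 to 0.988 among the FGF21 libraries and at 0.989 to 0.992 among the vehicle libraries. The cause was not tested in any of these settings.

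The log2 fold change of Fasn became -0.046 with the GC trend removed. That of Acta2 became -0.75 without FGF21 replicates 1 and 3. That of Cyp7a1 ranged from -0.25 without vehicle replicate 2 to 0.82 without FGF21 replicate 1. None of these 3 genes was called with all libraries.

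The labels do not say that replicate numbers pair the samples. Deviations of same-numbered libraries from their group means correlated at 0.28, 0.19, 0.09 and 0.28, and not all passed 0.1, so the samples were not treated as paired. A replicate block gave 958 higher and 635 lower genes and lost 0 calls of named genes. Vehicle replicates 1, 2 and 4 correlated best with the FGF21 library of their own number, and vehicle replicate 3 with FGF21 replicate 1. The library names number the vehicle samples differently from the replicate numbers, so equal replicate numbers mark no stated pair. Depth is unknown, so low TPM values carry counting error that cannot be stated here.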

Other observations

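Predicted genes were left out of the named genes, and Gm21981 had a larger log2 fold change than any named gene called higher. It was at 2.4, 2.9, 2.3 and 3.5 TPM with vehicle and 5.8, 21.1, 7.8 and 59.6 TPM with FGF21 (log2 fold change 2.17, SE 0.51, limma adjusted p = 0.0186). It was chosen after its values were seen. The groups did not overlap, FGF21 replicate 4 was far above the others, and the call was lost without vehicle replicate 1 or 3 or FGF21 replicate 2.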
